A study of Mus musculus with 18 samples.

Results

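Hippocampal RNA of vehicle-fed mice killed as adults was set against that of vehicle-fed mice killed at postnatal day 28 (P28). The comparison takes the 9 vehicle samples of a series of 18: 5 adult vehicle samples and 4 P28 vehicle samples. They were chosen by their labels alone. Tests ran over all probes above background, and the result was described mainly for those that carry a gene symbol. The other 9 samples, 5 adult and 4 P28, came from mice given cannabis extract, 20 mg/kg daily for 14 days, and they share no array with the vehicle comparison. They give an age difference of their own, in which age and time since the last extract cannot be told apart. They also enter the background filter, the choice of probes and the estimate of the spread in the fit.

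All mice were C57BL/6J (written C57Bl6/J in the sample labels), a common inbred laboratory strain, and no genotype or transgene is given. Vehicle was an emulsion of sweetened condensed milk and olive oil, fed by hand from P14 to P28 in place of gavage. The P28 vehicle group was killed 70 to 80 min after feeding began, and so was the P28 cannabis group, whose feed held the extract. The adult vehicle group, labelled P56, had also gone through a battery of behavioural tests ending with phencyclidine-induced hyperlocomotion, then 2 weeks of washout. The adult cannabis group has the same age and the same 2 weeks after phencyclidine. Age, test history, time since the last feed and kill conditions therefore cannot be told apart. The labels give no sex and do not tie arrays to separate mice, so the p-values reflect only how these samples spread, and part of that spread may be technical.

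Between P28 and adulthood the rodent hippocampus leaves the last steep part of its postnatal growth. Oligodendrocytes, which wrap axons in myelin, pass the height of membrane production around these weeks, and that membrane is rich in cholesterol and in sphingolipids with a galactose head group. Newborn granule neurons of the dentate gyrus go on being made throughout life, but in falling numbers, and the transporters, channels and matrix around inhibitory synapses reach their adult form at about these ages. In bulk tissue, fewer cells of a type and less RNA per cell cannot be told apart.

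RNA was hybridised to Illumina mouse bead arrays, and values are log2 intensities that the authors had normalised between arrays. Of 45281 probes, 18417 exceeded a background level of 6.98 in at least 4 arrays, 15784 of them with a gene symbol, for 10510 named genes. For each gene the probe with the highest mean over all arrays was used, and list counts and calls are by that brightest probe. The number of arrays limits the precision, and arrays within a group correlated at 0.981 to 0.995. Within each group, arrays 4 and 5 differed from arrays 1 to 3: along the leading axis of within-group variation, which held 40.0% of it, they lay at 10.4 to 16.2, against -23.6 to 4.12 for arrays 1 to 3. Arrays 4 and 5 are the last of the 3 sets of 6 in deposit order, but the labels do not say what sets them apart. In a limma fit that held the groups, 4317 of the 18417 probes differed across this split at an adjusted p below 0.05. The main fit held no block for it. The tissue label was set beside markers. The 9 CA pyramidal markers averaged 10.23 to 10.39 in adult vehicle arrays and 10.23 to 10.38 in P28 vehicle arrays. C1ql2, 1 of 6 dentate granule markers above background, averaged 11.80 ± 0.24 in adult vehicle arrays and 11.48 ± 0.16 in P28 vehicle arrays (SD, n = 5 and 4). Markers of thalamus and habenula (7 genes), striatum (5) and neocortex (7) had no called member, which compares ages and not tissue. The 6 dentate granule markers together averaged only 8.37 to 8.71 in adult vehicle arrays. Neocortex markers averaged 8.35 to 8.85 there, thalamus and habenula markers 8.40 to 8.70, and striatum markers 7.76 to 7.96. In P28 vehicle arrays the dentate levels also overlapped those of neocortex and of thalamus and habenula. The lists use different probes, whose levels are not amounts on a common scale. Mean marker levels therefore cannot decide whether neocortex or thalamus was present beside the dentate gyrus.

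Most changes past the threshold were losses in adults, led by the genes of myelin. In a limma fit with Benjamini-Hochberg adjustment at 0.05, 195 probes were called (1.06% of those tested), 47 higher in adults (0.255%) and 148 lower (0.804%). Of these, 174 carried a symbol. Taking 1 probe per gene, 126 of 10510 genes were called (1.2%), 28 higher (0.266%) and 98 lower (0.932%). The median log2 difference of called probes was 0.39 for those higher and -0.52 for those lower, 20 probes lay below -1 and 3 above 1, and over all genes the median was -0.00054. Adult and P28 vehicle arrays did not overlap for 182 of the 195 probes, against 6.16% of all probes tested. The 195 were picked by a test on these same arrays, so their share is largely set by the choice. Calls were concentrated among bright probes, with 9, 36, 63 and 87 in 4 equal bins of mean intensity from dim to bright.

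Which probes pass depended on single arrays. Leaving out 1 vehicle array at a time gave 2 to 103 probes higher in adults and 26 to 214 lower. The fewest passed without P28 vehicle replicate 3 (2 higher, 26 lower), replicate 2 (5 and 30) or replicate 1 (8 and 45), and 36 and 179 passed without P28 vehicle replicate 4. Without adult vehicle replicates 1, 3, 4 and 5 in turn, 9, 17, 10 and 27 probes were higher and 60, 67, 51 and 65 lower. Without adult vehicle replicate 2, 103 were higher and 214 lower. All 195 probes kept their direction in each of these 9 fits, within arrays 1 to 3 and within arrays 4 and 5 (2 adult arrays against 1), and 26 were called in all 9. The probes were picked for their difference in these same arrays, so keeping their direction was largely set by the choice. With the split of arrays 4 and 5 from 1 to 3 as a block, 147 were higher and 270 lower, among them all 195. Within arrays 1 to 3 alone limma called 0 higher and 4 lower, with 1004 and 1095 at an unadjusted p below 0.05. Within arrays 4 and 5 alone it called 0 in either direction, with 451 and 585 at an unadjusted p below 0.05.

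The values hold the background glow of the array, which compresses the differences of dim genes. After normexp background correction the log2 difference was -1.68 for Enpp6, -1.26 for Bmp4, -1.15 for Adamts4, -1.06 for Oasl2, -0.67 for Ifitm1, -0.61 for Serping1, -0.46 for Hapln1, 1.22 for Inhba and 1.01 for Itga11, each over 1.5 times the value given in the paragraphs that follow. Within arrays 4 and 5 it was smaller than that value by over 1.5 times for Sqle (-0.38), Cyp51 (-0.42), Fdps (-0.30), Oasl2 (-0.37), Adamts4 (-0.40) and Slc2a1 (-0.21).

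**Figure D1:**
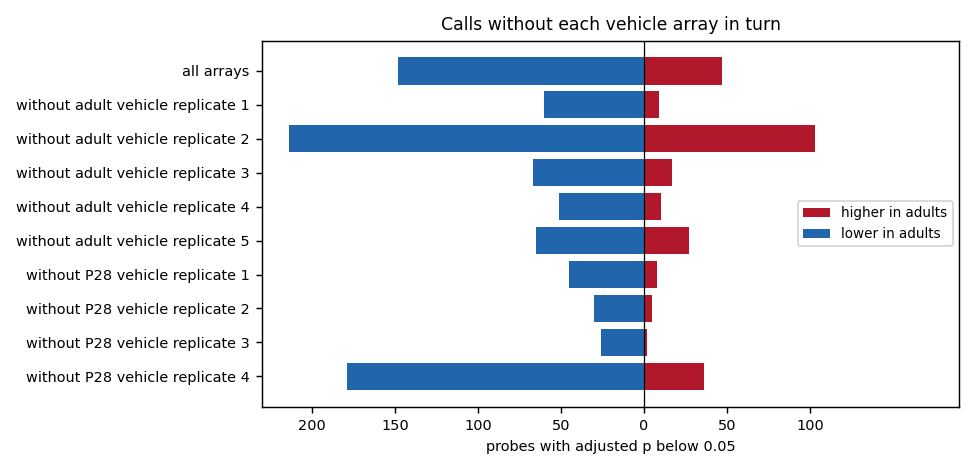
Probes with an adjusted p below 0.05 (x axis, a count that runs outward from 0 on each side) for all arrays and with each vehicle array left out (rows). Bars to the right are probes higher in adults and bars to the left probes lower in adults. Lower probes outnumber higher ones in every row, and the counts are smallest without P28 vehicle replicate 3 (2 and 26).

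The myelin genes gave the largest losses. Mag, the myelin-associated glycoprotein that faces the axon, measured 10.53, 11.66, 11.29, 10.98 and 11.11 in the 5 adult vehicle arrays, against 12.64, 12.88, 12.82 and 12.29 in the 4 P28 vehicle arrays. Every adult array lay below every P28 array. The log2 difference was -1.54 ± 0.23 (moderated SE), a 2.91-fold lower intensity (adjusted p = 0.00634). Mog, the glycoprotein of the outermost myelin surface, measured 7.82, 8.59, 8.28, 7.91 and 7.87 in adult vehicle arrays, against 9.47, 9.63, 9.94 and 9.15 in P28 vehicle arrays. The groups again did not overlap (-1.45 ± 0.22, adjusted p = 0.00634). Tspan2, a tetraspanin of oligodendrocytes, measured 8.91, 9.37, 9.49, 9.25 and 9.26 in adult vehicle arrays, against 10.76, 10.84, 10.95 and 10.49 in P28 vehicle arrays. It fell by 1.504 ± 0.23 on the log2 scale (adjusted p = 0.00634). Cnp, the cyclic nucleotide phosphodiesterase of non-compact myelin, fell by 1.49 ± 0.25 (adjusted p = 0.00769). These 4 genes were called with any single array left out.

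Enzymes that build myelin lipids also fell. Ugt8a, which adds galactose to ceramide to make the chief myelin glycolipid, averaged 9.46 ± 0.34 in adult vehicle arrays and 10.98 ± 0.49 in P28 vehicle arrays (SD, n = 5 and 4), a log2 difference of -1.52 ± 0.31 (adjusted p = 0.0261). Fa2h, which hydroxylates the fatty acids of those lipids, averaged 9.78 ± 0.31 in adult vehicle arrays and 10.97 ± 0.32 in P28 vehicle arrays. Its difference of -1.19 ± 0.28 lay close to the threshold (adjusted p = 0.045) and was called in 1 of 9 fits with an array left out. Opalin, a membrane glycoprotein found in myelinating oligodendrocytes, differed by -1.51 ± 0.31 (adjusted p = 0.0246), and was called in 2 of the 9.

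Not all myelin genes went down. Of 29 members of the myelin list above background, 11 fell (0.932% of all genes were called lower), none rose and 18 did not pass. The median was -0.62, with 21 below 0 (50.2% of all genes were), and on 15 members the adult arrays all lay below the P28 arrays, against 4.21% of all genes. Mbp, the basic protein that compacts myelin, averaged 13.37 ± 0.26 in adult vehicle arrays and 14.07 ± 0.17 in P28 vehicle arrays (-0.70 ± 0.16, adjusted p = 0.0398). Its 5 probes did not move alike: 3 were called lower and 1 differed by 0.16 with no call. Mobp, another compact myelin protein, was not called by its brightest probe (-0.83 ± 0.20, adjusted p = 0.0547), while its 4 other probes were called at -0.69 to -1.88. Of members that did not pass, Hapln2, a link protein of the nodes of Ranvier, averaged 7.80 ± 0.20 in adult vehicle arrays and 7.24 ± 0.17 in P28 vehicle arrays, with no overlap (0.56 ± 0.17, adjusted p = 0.114). Cntn2, an adhesion molecule of the juxtaparanode beside the node, differed by 0.38 ± 0.15 (adjusted p = 0.26). Without single vehicle arrays 4 to 12 members were called. The list's median was -0.63 within arrays 1 to 3, -0.43 within arrays 4 and 5, and -0.52 in the cannabis arrays.

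**Figure D2:**
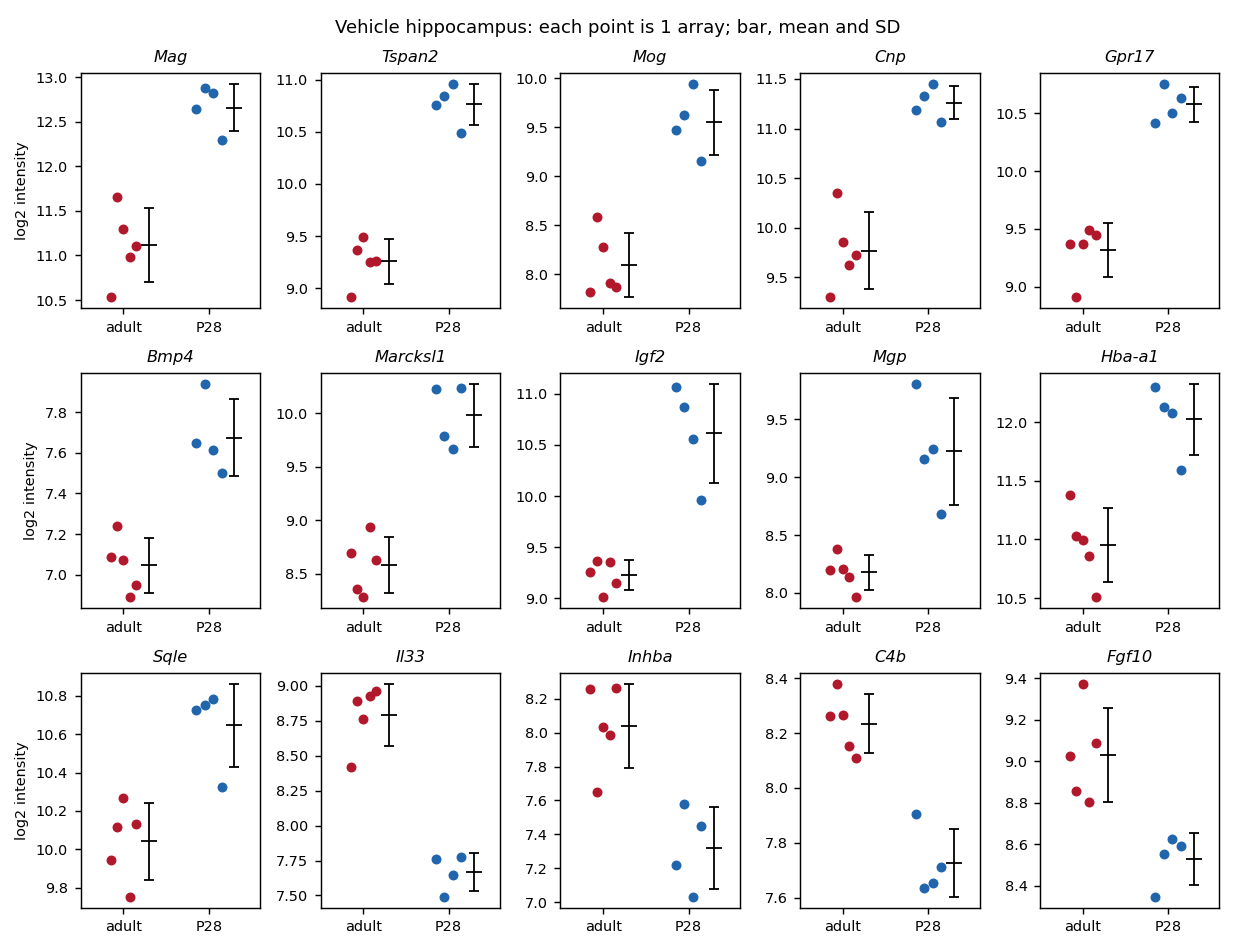
Log2 intensity (y axis, a separate scale in each panel) of 15 genes in the adult vehicle (red, n = 5) and P28 vehicle (blue, n = 4) arrays. Each point is 1 array, and the bar shows the mean and SD. Adult and P28 arrays do not overlap in any of the 15 panels. Mag, Tspan2, Mog, Cnp, Gpr17, Bmp4, Marcksl1, Igf2, Mgp, Hba-a1 and Sqle are lower in adults, and Il33, Inhba, C4b and Fgf10 higher.

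Genes of cells on the way to becoming oligodendrocytes were also lower in adults. Gpr17, a receptor of precursors that are about to myelinate, measured 9.37, 8.91, 9.37, 9.49 and 9.45 in adult vehicle arrays, against 10.42, 10.75, 10.50 and 10.64 in P28 vehicle arrays. The highest adult array lay well below the lowest P28 array, and the difference was -1.26 ± 0.26 (adjusted p = 0.028). Enpp6, a choline phosphodiesterase that marks newly formed oligodendrocytes, averaged 7.34 ± 0.19 in adult vehicle arrays and 8.41 ± 0.33 in P28 vehicle arrays (-1.07 ± 0.24, adjusted p = 0.0403). Bmp4, a secreted growth factor made by newly committed oligodendrocytes, measured 7.09, 7.24, 7.07, 6.89 and 6.95 in adult vehicle arrays, against 7.65, 7.94, 7.61 and 7.498 in P28 vehicle arrays. It fell by 0.63 ± 0.11 on the log2 scale (adjusted p = 0.0158). Olig1, a transcription factor of the whole lineage, differed by -0.74 ± 0.17 (adjusted p = 0.0416), and Pdgfra, the growth factor receptor of dividing precursors, by -0.55 ± 0.13 (adjusted p = 0.0432). These 5 were the called members among 14 precursor genes above background, where 0.932% of all genes were called lower. The median of the 14 was -0.20. Of them, 13 were below 0 and 9 had the adult arrays all lower, against 50.2% and 4.21% of all genes. The precursor list had between 0 and 6 called members when single vehicle arrays were left out, with medians of -0.28 to -0.17.

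The sterol pathway that supplies myelin with cholesterol had 3 called members of 17, all lower (0.932% of all genes were called lower). Sqle, which makes squalene epoxide, measured 9.94, 10.11, 10.27, 9.75 and 10.13 in adult vehicle arrays, against 10.73, 10.75, 10.78 and 10.33 in P28 vehicle arrays. P28 replicate 4 was the lowest of its group by a wide margin but still above every adult array, and the difference was -0.61 ± 0.11 (adjusted p = 0.0159). Cyp51, the lanosterol demethylase, differed by -0.69 ± 0.14 (adjusted p = 0.0208). Fdps, which makes farnesyl diphosphate, differed by -0.55 ± 0.13 with overlapping groups (adjusted p = 0.0496). The list's median was -0.19, with 14 members below 0 (50.2% of all genes were). Between 0 and 4 members were called without single vehicle arrays. Within arrays 4 and 5 the median was -0.08, against -0.22 within arrays 1 to 3.

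Marker genes show how wide the loss was. Of 9 mature oligodendrocyte markers above background, 8 were below 0 and 6 called lower, against 50.2% and 0.932% of all genes. Their mean level ran from 9.82 to 10.58 in adult vehicle arrays and from 11.17 to 11.50 in P28 vehicle arrays. Of 20 microglial and 9 astrocyte markers none was called. Their medians were -0.07 and -0.08, and the mean levels of the 2 lists overlapped between ages (microglia 7.87 to 8.11 in adult and 7.98 to 8.05 in P28 vehicle arrays). A wider list of 18 genes of astrocytes and glutamate uptake had 0 calls and a median of -0.06. The 16 endothelial markers had 1 call, Slc2a1, the glucose transporter of brain capillaries. It averaged 10.42 ± 0.04 in adult vehicle arrays and 10.78 ± 0.10 in P28 vehicle arrays (-0.37 ± 0.08, adjusted p = 0.0364). It was also the only called gene among 17 of glycolysis and lactate transport, whose median was 0.01.

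Genes listed for immature neurons gave the next group of losses. Marcksl1, an actin-binding protein of growing neurites, measured 8.69, 8.36, 8.28, 8.93 and 8.63 in adult vehicle arrays, against 10.23, 9.78, 9.67 and 10.23 in P28 vehicle arrays. It fell by 1.40 ± 0.26 (adjusted p = 0.0159), though its dimmer second probe was not called (-0.12). Igfbpl1, a binding protein of the insulin-like growth factor family in newborn neurons, was not well above background on any adult vehicle array and was above it on all 4 P28 vehicle arrays. It averaged 6.83 ± 0.06 in adult vehicle arrays and 7.59 ± 0.20 in P28 vehicle arrays (adjusted p = 0.02), at least 1.53-fold lower in adults. Tuba1a, the alpha tubulin of growing axons, differed by -0.52 ± 0.12 (adjusted p = 0.04). These were the 3 called of 24 genes of immature neurons (0.932% of all genes were called lower). Of the 24, 20 were below 0 (50.2% of all genes were), with a median of -0.34. That median stayed between -0.37 and -0.30 when single vehicle arrays were left out, while 0 to 3 members were called. Members that did not pass include Dcx, the microtubule protein of migrating neurons, at 7.52 ± 0.04 in adult vehicle arrays and 8.08 ± 0.14 in P28 vehicle arrays. Its groups did not overlap (-0.57 ± 0.16, adjusted p = 0.0921). Sox11, a transcription factor of newborn neurons, differed by -0.60 ± 0.18 (adjusted p = 0.115). Among 17 genes of cell division, limma called 0, and the median was -0.06. Mapre1, a protein of growing microtubule ends, was the called member among 19 neurofilament and axon genes (-0.50 ± 0.09, adjusted p = 0.0159), whose median was 0.08.

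**Figure D3:**
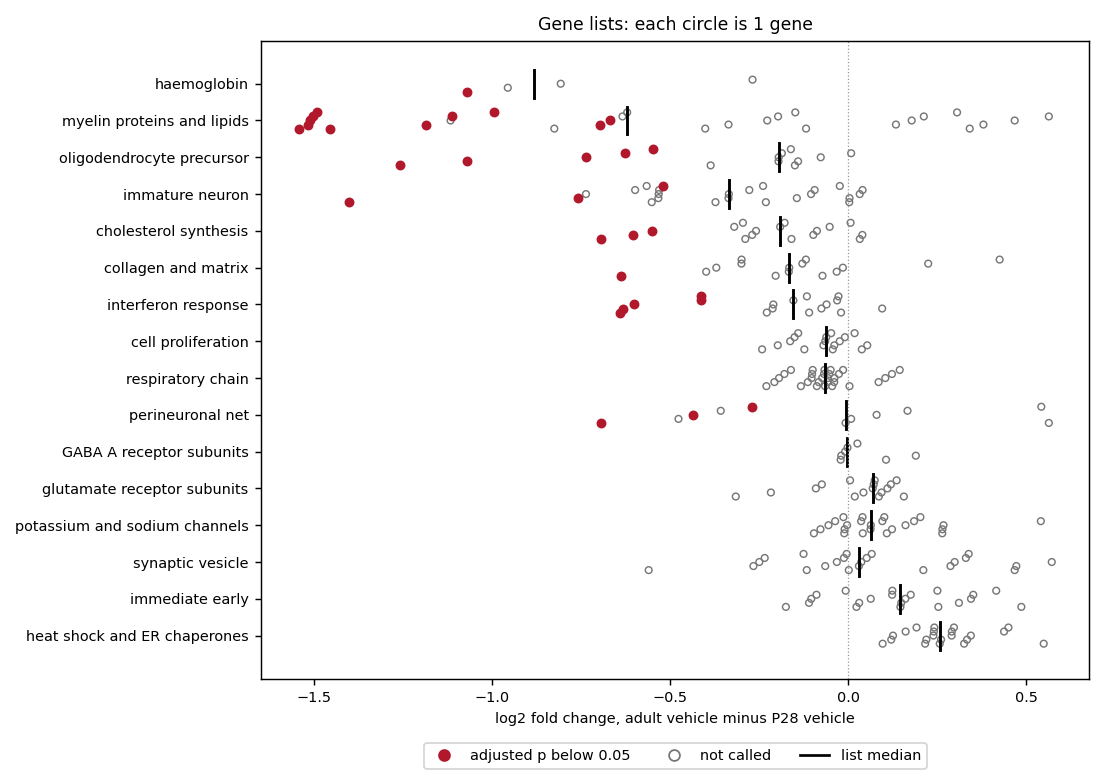
Log2 fold change of adult vehicle minus P28 vehicle (x axis) for the members above background of 16 gene lists (rows). Each circle is 1 gene by its brightest probe, filled red where the adjusted p was below 0.05, and the black bar is the list's median. The called genes lie to the left of 0 in all the lists drawn, and all 21 chaperone genes lie to the right of 0 with no call.

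Single genes of vessels, coverings and blood were among the losses. Igf2, a growth factor that in the brain comes mostly from the choroid plexus, meninges and vessels, measured 9.25, 9.37, 9.01, 9.35 and 9.15 in adult vehicle arrays, against 11.07, 10.87, 10.56 and 9.96 in P28 vehicle arrays. The adult arrays lay close together and below every P28 array (-1.39 ± 0.24, adjusted p = 0.00995). The difference was -1.62 within arrays 1 to 3 and -0.70 within arrays 4 and 5. Igf2 was the only called gene among 10 imprinted growth genes, whose median was 0.04. Meg3, an imprinted non-coding RNA, averaged 10.55 ± 0.21 in adult vehicle arrays and 9.95 ± 0.14 in P28 vehicle arrays without passing (adjusted p = 0.118). Mgp, the matrix Gla protein of vessel walls, measured 8.20, 8.38, 8.21, 8.14 and 7.96 in adult vehicle arrays, against 9.81, 9.16, 9.24 and 8.68 in P28 vehicle arrays. It fell by 1.04 ± 0.17 (adjusted p = 0.00761), with -1.14 within arrays 1 to 3 and -0.63 within arrays 4 and 5. Sparc, a collagen-binding matrix protein, averaged 9.58 ± 0.09 in adult vehicle arrays and 10.22 ± 0.11 in P28 vehicle arrays (-0.64 ± 0.14, adjusted p = 0.0408), the only call among 15 collagen and matrix genes with a median of -0.17.

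Igf2 and Mgp are themselves among the 10 markers of meninges and fibroblasts above background, so this list is not separate from them. All 10 lay below 0 (50.2% of all genes did), with a median of -0.25, and only Igf2 and Mgp were called. The mean level of the 10, these 2 included, was 7.74 to 7.99 in adult vehicle arrays and 7.91 to 8.64 in P28 vehicle arrays. The list's median was -0.43 within arrays 1 to 3 and 0.11 within arrays 4 and 5. The 12 choroid plexus markers, of which limma called 0, ran from 7.13 to 7.51 in adult vehicle arrays and from 7.16 to 8.25 in P28 vehicle arrays. Ttr, their most abundant gene, measured 8.39, 11.28, 9.88, 10.93 and 10.67 in adult vehicle arrays and 10.84, 9.63, 13.75 and 8.72 in P28 vehicle arrays, so that P28 replicate 3 stood far above the rest. With choroid plexus level in the fit as a covariate, 19 probes were called higher and 113 lower, and Igf2 and Mgp kept their calls. What part the amount of covering tissue has in the other losses was not tested.

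Hba-a1, an alpha chain of haemoglobin, measured 11.37, 11.03, 10.997, 10.86 and 10.51 in adult vehicle arrays, against 12.30, 12.13, 12.08 and 11.59 in P28 vehicle arrays. It fell by 1.07 ± 0.23 (adjusted p = 0.0306). All 4 haemoglobin genes above background had adult arrays below P28 arrays (4.21% of all genes did), with a median of -0.88. But the beta chains Hbb-bs (-0.81 ± 0.23, adjusted p = 0.0956) and Hbb-bt (-0.96 ± 0.24, adjusted p = 0.0643) did not pass by their brightest probes. Of the 6 Hbb-bs and 4 Hbb-bt probes, 1 of each was called, at -0.99 (adjusted p = 0.0245) and -0.88 (adjusted p = 0.0439). These paralogues are nearly identical and their probes may share transcripts. The labels do not give how much blood stayed in each dissected hippocampus, and its part in these values was not tested.

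Of 17 interferon-induced genes above background, 5 fell in vehicle adults, and for these the cannabis arrays are given beside the vehicle arrays. For 2 of them and for B2m, the sequence around the start of the gene is shown because it holds the letters of the interferon-stimulated response element, the DNA motif bound by the transcription factors that interferon activates. The letters searched were GAAANNGAAA on both strands, where overlapping matches count separately. Promoter windows of 300 bases, from 250 before to 50 after the annotated start, came from RefSeq (GRCm38.p6), and 1131 of 32851 windows in the genome held the letters (3.44%). Of the 17, 14 had a window, and 10 of those held them. This count is by gene and the genome share by window, and a gene counts if any of its windows holds the letters. Among members that were not called, Stat2, Isg15, Ifitm2, Bst2, Gbp2, Trim30a, Ddx58 and Rsad2 held them, and Ifit2 and Irf9 did not. The letters were therefore not particular to the called genes. The stretches of 140 bases below run 5′ to 3′ along the gene's strand with the matches in capitals: Ifit3 at chr19:34583325-34583464 on the plus strand (2 matches, both on the opposite strand), Ifitm3 at chr7:141010695-141010834 on the minus strand (2 matches, both just downstream of the start), and B2m at chr2:122147483-122147622 on the plus strand (1 match). No match was found in the windows of Oasl2 and Ifitm1, which says only that these letters are not in those windows. A match is a description of the sequence and not a binding site.
Ifit3: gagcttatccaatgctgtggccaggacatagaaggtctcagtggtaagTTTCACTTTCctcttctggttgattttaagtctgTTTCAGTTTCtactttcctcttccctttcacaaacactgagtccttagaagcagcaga
Ifitm3: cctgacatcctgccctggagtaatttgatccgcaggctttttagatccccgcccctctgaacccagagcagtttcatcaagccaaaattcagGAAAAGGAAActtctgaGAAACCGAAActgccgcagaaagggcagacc
B2m: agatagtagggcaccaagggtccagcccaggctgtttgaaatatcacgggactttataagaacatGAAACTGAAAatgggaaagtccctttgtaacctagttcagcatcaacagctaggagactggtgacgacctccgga

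Ifitm1, an interferon-induced membrane protein that hinders virus entry, measured 7.53, 7.52, 7.41, 7.56 and 7.54 in adult vehicle arrays, against 7.94, 7.95, 7.91 and 7.91 in P28 vehicle arrays. The spread within each group was small beside the gap (-0.41 ± 0.06, adjusted p = 0.00634). Oasl2, a relative of the oligoadenylate synthetases that sense viral RNA, measured 7.10, 7.38, 7.29, 7.19 and 7.40 in adult vehicle arrays, against 7.99, 7.91, 7.93 and 7.66 in P28 vehicle arrays. It fell by 0.60 ± 0.10 (adjusted p = 0.00761). Both were called with any single array left out. Ifitm3, a close relative of Ifitm1, measured 8.23, 8.60, 8.15, 8.06 and 8.23 in adult vehicle arrays, against 9.03, 8.99, 8.93 and 8.64 in P28 vehicle arrays. Adult replicate 2 came close to the lowest P28 array, and the difference was -0.64 ± 0.13 (adjusted p = 0.0208). Ifit3, which blocks translation of viral RNA together with its relatives, averaged 8.07 ± 0.21 in adult vehicle arrays and 8.71 ± 0.26 in P28 vehicle arrays, with overlapping groups (-0.63 ± 0.12, adjusted p = 0.0209). Usp18, which removes the ubiquitin-like ISG15 from proteins, differed by -0.41 ± 0.09 (adjusted p = 0.0293).

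These were the 5 called of 17 interferon-induced genes (0.932% of all genes were called lower). Of the 17, 16 were below 0 (50.2% of all genes were), with a median of -0.15. In the cannabis arrays the median was -0.03, with 10 below 0 and none of the 17 called. Their mean level was 7.41 to 7.53 in adult vehicle arrays and 7.57 to 7.75 in P28 vehicle arrays, with 7.41 to 7.60 in adult cannabis arrays and 7.46 to 7.56 in P28 cannabis arrays. Without single vehicle arrays, 2 to 5 members were called. B2m, the light chain of class I histocompatibility molecules, measured 10.27, 10.46, 10.30, 10.36 and 10.41 in adult vehicle arrays, against 10.67, 10.67, 10.95 and 10.66 in P28 vehicle arrays. It fell by 0.38 ± 0.07 (adjusted p = 0.0205), the only call by brightest probe among 9 genes of antigen presentation, whose median was -0.06. H2-D1, a class I heavy chain, was called by its dimmer probe (-0.36 ± 0.08, adjusted p = 0.0348) and not by its brightest (-0.14 ± 0.09, adjusted p = 0.55). For B2m the age difference in the cannabis arrays was 0.09 ± 0.07, for Ifitm1 -0.02 ± 0.06, for Oasl2 -0.04 ± 0.10, for Ifitm3 -0.18 ± 0.13, for Ifit3 0.10 ± 0.12 and for Usp18 -0.06 ± 0.09. The difference of the 2 age differences was 0.47 ± 0.10 for B2m, 0.40 ± 0.09 for Ifitm1 and 0.56 ± 0.14 for Oasl2, but no probe passed in that test after adjustment (adjusted p = 1.00 for each).

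**Figure D4:**
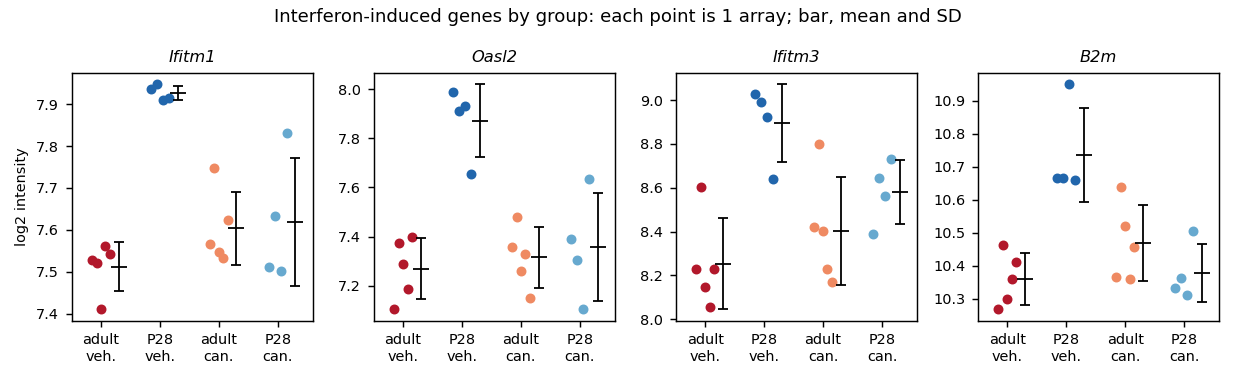
Log2 intensity (y axis, a separate scale in each panel) of Ifitm1, Oasl2, Ifitm3 and B2m in adult vehicle (n = 5), P28 vehicle (n = 4), adult cannabis (n = 5) and P28 cannabis (n = 4) arrays. Each point is 1 array, and the bar shows the mean and SD. The adult vehicle arrays lie below the P28 vehicle arrays in all 4 panels, while adult and P28 cannabis arrays overlap in all 4.

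Of 8 complement genes above background, 1 was called higher and 1 lower. C4b, a component of the classical pathway, measured 8.26, 8.38, 8.27, 8.15 and 8.11 in adult vehicle arrays, against 7.90, 7.63, 7.65 and 7.71 in P28 vehicle arrays. It rose by 0.51 ± 0.11 (adjusted p = 0.0398) with no overlap, but was called in 0 of the 9 fits that left out an array. Serping1, the inhibitor of the first component, fell by 0.32 ± 0.08 (adjusted p = 0.0472), and was called in 1 of the 9. Its difference was -0.40 within arrays 1 to 3 and -0.10 within arrays 4 and 5. The other 6 did not pass, and the list's median was -0.07.

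The largest gains were smaller than the largest losses. Il33, a nuclear cytokine that in adult brain is held mainly by oligodendrocytes and astrocytes, measured 8.42, 8.90, 8.76, 8.92 and 8.96 in adult vehicle arrays, against 7.76, 7.49, 7.65 and 7.78 in P28 vehicle arrays. It rose by 1.12 ± 0.21, or 2.18-fold (adjusted p = 0.0186), the largest rise among called genes with a symbol. 2900060B14Rik, a transcript known by its RIKEN clone name, measured 10.74, 10.90, 10.69, 10.30 and 10.33 in adult vehicle arrays, against 9.91, 9.79, 9.32 and 9.83 in P28 vehicle arrays. It rose by 0.88 ± 0.16 (adjusted p = 0.0159), with 1.11 within arrays 1 to 3 and 0.49 within arrays 4 and 5.

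The other 8 of the 10 largest gains include C4b, given above. Inhba, a subunit of activin, measured 8.26, 7.65, 8.04, 7.99 and 8.27 in adult vehicle arrays, against 7.22, 7.58, 7.03 and 7.45 in P28 vehicle arrays. Adult replicate 2 lay only just above the highest P28 array (0.72 ± 0.15, adjusted p = 0.033). Chrd, the secreted antagonist of bone morphogenetic proteins, averaged 10.28 ± 0.20 in adult vehicle arrays and 9.81 ± 0.17 in P28 vehicle arrays (0.48 ± 0.10, adjusted p = 0.0325). Fgf10, a fibroblast growth factor, measured 9.03, 8.86, 9.37, 8.80 and 9.09 in adult vehicle arrays, against 8.35, 8.55, 8.63 and 8.59 in P28 vehicle arrays. The groups did not overlap (0.50 ± 0.11, adjusted p = 0.0377). Itga11, a collagen-binding integrin chain, rose by 0.61 ± 0.14 (adjusted p = 0.043), and Slc26a4, the anion exchanger pendrin, by 0.50 ± 0.11 (adjusted p = 0.043). Wipf2, a regulator of actin assembly, rose by 0.47 ± 0.10 (adjusted p = 0.033). Upf2, a factor of nonsense-mediated mRNA decay, rose by 0.56 ± 0.13 with overlapping groups (adjusted p = 0.046). Of the 10 largest gains of called genes, 2900060B14Rik was called in 7 of the 9 fits with an array left out, Il33 in 5, and the others in 0 to 3. With choroid plexus level in the fit as a covariate, 8 of the 10 missed the threshold, all but Il33 and 2900060B14Rik.

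The matrix around inhibitory neurons, the perineuronal net, had 3 losses among 11 members above background (0.932% of all genes were called lower). Its median was -0.01, with 0 to 4 calls without single vehicle arrays. Bcan, the proteoglycan brevican, averaged 8.58 ± 0.14 in adult vehicle arrays and 9.01 ± 0.11 in P28 vehicle arrays (-0.44 ± 0.09, adjusted p = 0.0256). Adamts4, a protease that cuts such proteoglycans and is also found in oligodendrocytes, averaged 7.35 ± 0.16 in adult vehicle arrays and 8.05 ± 0.21 in P28 vehicle arrays (-0.70 ± 0.14, adjusted p = 0.0246). Hapln1, a link protein that ties proteoglycans to hyaluronan, differed by -0.27 ± 0.06 (adjusted p = 0.033). Hapln4, its relative at inhibitory synapses, averaged 10.01 ± 0.24 in adult vehicle arrays and 9.47 ± 0.21 in P28 vehicle arrays without passing (0.54 ± 0.17, adjusted p = 0.136).

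No gene of the lists for synaptic transmission passed the threshold in either direction. Limma called 0 of 17 inhibitory neuron genes (median 0.03), 0 of 7 GABA A receptor subunits (median -0.0022), 0 of 16 glutamate receptor subunits (median 0.07), 0 of 24 potassium and sodium channels (median 0.06), 0 of 23 synaptic vesicle genes (median 0.03) and 0 of 18 postsynaptic scaffold genes (median 0.05). For 6 of the 23 vesicle genes all adult arrays lay above all P28 arrays, and for 2 they lay below. Of the 24 channels, 3 had all adult arrays above and none below. Among all genes 2.61% lay above and 4.21% below. The other lists named here had no such gene. With arrays 4 and 5 against 1 to 3 as a block, 3 vesicle genes and 1 channel gene were called higher. Over all genes 1559 had an unadjusted p below 0.05. The 6 chloride transporters likewise had no call: Slc12a5, the chloride exporter of mature neurons, averaged 7.51 ± 0.27 in adult vehicle arrays and 7.39 ± 0.20 in P28 vehicle arrays, and Slc12a2, the chloride importer, 11.10 ± 0.21 in adult vehicle arrays and 11.65 ± 0.25 in P28 vehicle arrays (-0.55 ± 0.13, adjusted p = 0.0514). Closest to the threshold among vesicle genes was Syt4, a calcium-sensor relative, at 11.09 ± 0.28 in adult vehicle arrays and 10.52 ± 0.12 in P28 vehicle arrays (0.57 ± 0.15, adjusted p = 0.0667). In simulated data with the same groups, a log2 change of 0.25 was called in 26% of changed probes and one of 0.50 in 78%. The medians of these lists were smaller than 0.25, and most changes of that size went uncalled there. The simulation drew independent noise without the split of arrays 4 and 5 from 1 to 3, so its rates may not hold for the real arrays. Cnr1, the cannabinoid receptor of the brain, averaged 7.13 ± 0.07 in adult vehicle arrays and 7.07 ± 0.05 in P28 vehicle arrays (0.06 ± 0.05, adjusted p = 0.681), and 9 endocannabinoid genes had 0 calls.

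Genes that follow the recent state of the animal had no call either. All 21 genes of heat shock and endoplasmic reticulum chaperones lay above 0, with a median of 0.26 and 0 calls, against 49.8% of all genes above 0. The adult arrays lay wholly above the P28 arrays for 3 of the 21, against 2.61% of all genes, and the median was 0.22 within arrays 1 to 3 and 0.42 within arrays 4 and 5. Calr, a calcium-binding chaperone, measured 9.34, 8.98, 9.06, 8.64 and 8.91 in adult vehicle arrays, against 8.47, 8.55, 8.45 and 8.27 in P28 vehicle arrays (0.55 ± 0.18, adjusted p = 0.163). Mean chaperone levels ran from 9.10 to 9.62 in adult vehicle arrays and from 8.999 to 9.15 in P28 vehicle arrays. The 21 immediate early genes of neuronal activity had 0 calls and a median of 0.15, with 16 above 0, the 18 glucocorticoid-responsive genes 0 calls and a median of -0.09, and the 15 clock genes 0 calls and a median of 0.05. Among glucocorticoid-responsive genes Plin4, a lipid-droplet protein, measured 7.92, 7.41, 8.77, 8.71 and 8.26 in adult vehicle arrays, against 7.14, 6.98, 7.14 and 7.05 in P28 vehicle arrays. The adult arrays were widely spread and all higher (1.13 ± 0.29, adjusted p = 0.0637). Respiratory chain genes (30, median -0.07, 25 below 0), ribosomal proteins (24, median 0.04) and axon guidance genes (24, median 0.01) also had 0 calls.

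The cannabis arrays gave an age difference in other samples, where the P28 mice were killed 70 to 80 min after a feed with extract. Age and time since the extract cannot be told apart there. Choroid plexus markers differed with age there: the 12 averaged 7.25 to 7.43 in adult and 7.52 to 8.98 in P28 cannabis arrays (median difference -0.75). Limma gave 1951 probes an unadjusted p below 0.05 in the cannabis arrays, and 719 with choroid plexus level as a covariate. Age and choroid plexus level therefore cannot be fully told apart in the cannabis arrays. Of the 195 probes called in vehicle mice, 187 had the same direction there (95.9%, against 66.9% of all probes) and 144 an unadjusted p below 0.05. Limma called 5 probes in the cannabis arrays, all lower in adults (0.0271%; 2 genes by their brightest probe, 0.019%), and 3 of these, 2 of Mobp and 1 of Ddr1, were also called in the vehicle arrays. The median difference there was -0.33 for probes lower in vehicle adults and 0.20 for those higher. For 192 of the 195 the difference was smaller in the cannabis arrays, and since they were picked as the largest in vehicle arrays, that is in part set by the choice. Mag differed by -1.08 ± 0.23 in the cannabis arrays, Mog by -1.28 ± 0.22 and Il33 by 0.63 ± 0.21. The 8 probes with the opposite direction were those of Ifit3, B2m, H2-D1, Sri, Coq5, Ndufaf4, Rnu6 and 2900060B14Rik. For 2900060B14Rik the age difference in the cannabis arrays was -0.02 ± 0.16.

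The test of the difference between the 2 age differences called 0 probes in limma (0.0%), with 541 at an unadjusted p below 0.05. The smallest p belonged to Rfesd, a Rieske-type iron-sulphur protein, at 0.36 ± 0.08, followed by B2m and Ifitm1. Rfesd averaged 7.57 ± 0.06 in adult vehicle arrays and 7.78 ± 0.09 in P28 vehicle arrays and was not called there (adjusted p = 0.0614).

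**Figure D5:**
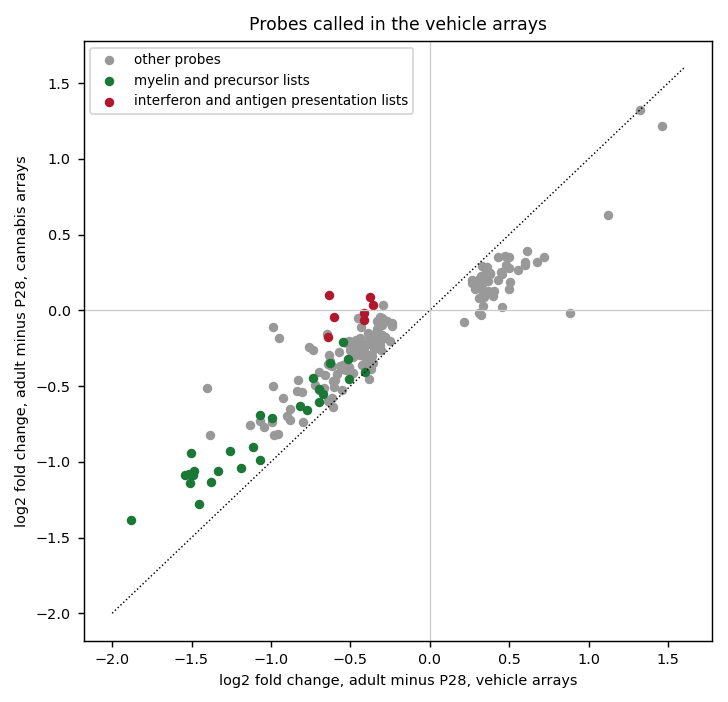
Log2 fold change of adult minus P28 in the vehicle arrays (x axis) and in the cannabis arrays (y axis) for the 195 probes called in the vehicle arrays. Each point is 1 probe, green for the myelin and oligodendrocyte precursor lists and red for the interferon and antigen presentation lists, and the dotted line marks equal differences. The green points run along the dotted line, mostly above it, while the red points lie at -0.18 or higher on the y axis.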

How the data were processed

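Hippocampal RNA was measured on Illumina bead arrays. The values used are log2 intensities in the authors' deposited value table, whose columns hold nearly the same distribution (median 6.86, sorted columns within 0.0046 of each other), so the authors had normalised between arrays. They were not background-subtracted. The submitters' processing notes name Partek, without steps. A further 72 per-sample columns, named by slide position, match no sample label and were not used.

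Gene symbols came from the platform annotation (34885 probes with 1 symbol, 18 with several, 10378 unnamed here), 10 of them updated through RefSeq. A probe was kept above 6.98, the background mode of 6.77 plus 3 SD (0.0693), in at least 4 arrays. limma 3.58.1 (R 4.3.3) fitted 4 group means over 18 arrays (residual df 14, prior df 3.90), with 2-sided moderated tests and Benjamini-Hochberg adjustment over 18417 probes. Errors of differences are moderated SE. Named genes were the 10 largest called rises and falls, up to 3 called members per list and direction by smallest p, members called against their list, the 3 smallest p of the interaction, and Cnr1. Ifit3, Usp18, Olig1, Pdgfra, Mbp, Mobp and the genes given as not called stand beside them. The comparison, gene lists and motif were chosen with earlier results of these data known.

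Same-numbered adult and P28 vehicle arrays had deviations that correlated at 0.365, 0.0718, 0.294 and 0.573. Differently numbered arrays correlated at -0.515 to 0.585, the highest between adult replicate 5 and P28 replicate 4. The labels give no pairs, so the main fit took none, and shared structure between arrays may remain in it. Replicate number and deposit order entered as blocks in alternative fits only. Alternatives were the filter, prior, array weights, blocks, splits, background correction, the choroid plexus level, the probes of a gene and each array left out. In simulated data (18417 probes, 50 changed at each size, adult against P28 vehicle) log2 changes of 0.25, 0.50, 1.00 and 1.50 were called in 26%, 78%, 100% and 100% of changed probes, with 11 false among 163 calls. The simulated noise was independent and held no split of arrays.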

Additional observations from a re-analysis of the deposited data

Results flagged for a closer look

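In 8 of 84 groups of named-gene values tested, 1 array stood apart from the rest of its group by the gap to its neighbour over the group's range, where chance flags about 1 in 20. Adult vehicle replicate 2 was low for Upf2 (11.19, against 11.72 to 11.86 on the other 4) and for Gpr17 (8.91, against 9.37 to 9.49), and high for Sparc (9.75, against 9.52 to 9.58). Adult vehicle replicate 3 was low for Ifitm1 (7.41, against 7.52 to 7.56). P28 vehicle replicate 4 was low for Sqle (10.33, against 10.73 to 10.78) and for Bcan (8.84, against 9.06 to 9.09). P28 vehicle replicate 3 was high for B2m (10.95, against 10.66 to 10.67), and P28 vehicle replicate 1 for Sparc (10.39, against 10.16 to 10.17). Without adult vehicle replicate 2 more probes were called than with all arrays (103 higher and 214 lower), and the choroid plexus marker Ttr was highest on P28 vehicle replicate 3 (13.75). What these single arrays share with the values above was not tested.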

How the results depend on the processing

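All 195 called probes that could be tested kept their direction in each alternative run, and no named gene was reversed in any. These probes and most named genes were picked on the same arrays, so this was largely set by the choice. Counts of calls moved far more, and of the named genes 39 missed the threshold in arrays 1 to 3 alone, 40 in arrays 4 and 5 alone, 20 with no filter, 12 with the choroid plexus covariate, 5 after background correction, 5 with the vehicle arrays alone, 4 with the mean of a gene's probes, 1 with the trend and robust prior and 3 with the replicate block (Upf2, Sparc and Serping1). Leaving out single arrays lost 2 to 32, the most without P28 vehicle replicate 2 (32), replicate 3 (31) or replicate 1 (27). Against 47 probes higher and 148 lower in vehicle adults, limma called 18 and 81 with no filter, 320 and 529 with array weights, 121 and 235 with the replicate block, 147 and 270 with arrays 4 and 5 against 1 to 3 as a block, 199 and 353 with 3 sets of 6 in deposit order as a block, 106 and 269 with the 9 vehicle arrays alone, 0 and 4 in arrays 1 to 3 alone (1004 and 1095 at an unadjusted p below 0.05) and 0 and 0 in arrays 4 and 5 alone (451 and 585). With choroid plexus level in the fit as a covariate 19 were higher. Leaving out single arrays gave 2 to 103 higher and 26 to 214 lower. A filter on all 18 arrays, a trend and robust prior, background correction and the mean of a gene's probes moved these counts by less than 1.5 times. Against 5 probes in the cannabis arrays, limma called 20 with the filter on all 18 arrays, 14 with the trend and robust prior, 53 with the replicate block, 8 with arrays 4 and 5 as a block, 32 in arrays 4 and 5 alone, 140 with 3 sets of 6, 15 after background correction, 1 with the mean of a gene's probes, and 0 with no filter (3291 at an unadjusted p below 0.05), with array weights (1915), in arrays 1 to 3 alone (1062) or with the covariate (719), with 0 to 102 when single arrays were left out. Not every array correlated best with its own number, so the block is a hint from the data only. In arrays 4 and 5 the lone P28 vehicle array is assumed to vary like the other groups. The difference between the age differences had 0 calls in each setting except arrays 4 and 5 alone, with 10. The cause of these moves was not tested, except that the splits, the single-arm fit and the left-out arrays use fewer samples. The number of arrays and the background of dim probes limit what can be called.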

Other observations

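Genes outside the lists were read after their values were seen, and are given as values. Genes of chromatin were among the losses: H1f2, a linker histone, averaged 10.32 ± 0.22 in adult vehicle arrays and 11.27 ± 0.48 in P28 vehicle arrays (SD, n = 5 and 4), a log2 difference of -0.95 ± 0.18 (limma adjusted p = 0.0199), with a second probe at -0.99 and values of -0.18 and -0.11 in the cannabis arrays. H2ac10, a core histone, averaged 10.77 ± 0.05 in adult vehicle arrays and 11.20 ± 0.14 in P28 vehicle arrays (adjusted p = 0.0126). Hmgn2, a nucleosome-binding protein, differed by -0.51 ± 0.10 and H1f10, a further linker histone, by -0.41 ± 0.09. Histone genes are alike in sequence, and 1 probe may bind transcripts of several. Among lipid enzymes outside the sterol list, Hacd1, a dehydratase of fatty acid elongation, differed by -0.49 ± 0.08, Elovl6, a fatty acid elongase, by -0.47 ± 0.09, and Pcyt2, an enzyme of ethanolamine phospholipid synthesis, by -0.44 ± 0.08. Gltp, which carries glycolipids between membranes, differed by -0.88 ± 0.13, and Sirt2, a tubulin deacetylase abundant in oligodendrocytes, by -0.98 ± 0.16, both called with any single array left out. Gamt, which completes creatine synthesis, differed by -0.96 ± 0.18. Igfbp4, a binding protein of insulin-like growth factors, averaged 9.57 ± 0.11 in adult vehicle arrays and 10.07 ± 0.13 in P28 vehicle arrays (-0.50 ± 0.07, adjusted p = 0.00634). Ddr1, a collagen receptor of oligodendrocytes, differed by -0.80 ± 0.12 in vehicle and -0.73 in cannabis arrays.

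Snx27, which returns receptors from endosomes to the synaptic membrane, was called higher by 3 of its 5 probes. They averaged 8.43 to 8.90 in adult vehicle arrays and 7.83 to 8.22 in P28 vehicle arrays, with differences of 0.60 to 0.68, while its brightest probe differed by 0.19 ± 0.10 and was not called (adjusted p = 0.418). Other genes called higher were Kmt2a, a histone methyltransferase, at 11.01 ± 0.09 in adult vehicle arrays and 10.56 ± 0.10 in P28 vehicle arrays (0.46 ± 0.10), Faim2, an inhibitor of cell death in neurons (0.39 ± 0.09), Chst1, a keratan sulphotransferase (0.33 ± 0.07), and Sptb, a spectrin chain (0.31 ± 0.06), whose groups did not overlap. The largest rises of all belonged to 2 probes that are unnamed here, ILMN_1230073 (1.47 ± 0.32 in vehicle arrays, 1.22 in cannabis arrays) and ILMN_2638923 (1.33 ± 0.26 in vehicle arrays, 1.33 in cannabis arrays).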
